A study of Drosophila melanogaster with 4 samples.

Results

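The cytoplasmic ribosomal protein genes of Drosophila melanogaster were examined for binding of the CG8924 protein at their promoters. They were taken by name from the gene annotation, as protein-coding genes whose symbol starts with RpL or RpS followed by a digit or P, with sta added. This gave 93 of 13945 protein-coding genes, 54 for the large ribosomal subunit and 39 for the small one. The subunit was also taken from the symbol, so relatives named -like are counted with the subunit of their namesake throughout. Chromatin immunoprecipitation with sequencing was done with an antibody to GFP on whole embryos of pooled sex, collected over 0 to 24 h of age, from a stable transgenic line in which GFP is joined to the C terminus of CG8924. All 4 biological replicates came from this 1 line, with fragments of 200 to 800 bp, and neither an untagged line nor another condition was analysed here. Because the embryos were used whole, peaks could not be assigned to a cell type.

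The ribosome translates messenger RNA into protein and is built from ribosomal RNAs and the proteins encoded by these genes. Subunits are assembled in the nucleolus and need their proteins in matched amounts, so these genes are highly and jointly expressed in growing cells, and in flies the loss of a single copy of many of them delays development and shortens the bristles (the Minute phenotype). Their promoters are known for an unusual start site, the TCT initiator, a run of pyrimidines that takes the place of the common initiator. Many fly promoters of housekeeping genes also carry the DNA replication-related element (DRE), TATCGATA, which the factor DREF binds.

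A gene was counted as bound where the summit of a peak in the authors' reproducibility-thresholded list lay within 500 bp of one of its annotated transcription start sites (TSSs). Peaks were ranked by the signal value deposited by the authors, so that rank 1 is the highest of the 7842 thresholded peaks, and a gene with several summits in the window was given the highest. Each replicate list holds 30000 peaks, of which the 7842 of highest signal are called top-ranked here. Replicate 1 contributed to neither the pooled nor the thresholded list, which rest on replicates 2, 3 and 4, and a single control file served all lists. Signal was compared within lists only, since no read depth is known.

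CG8924 peaks were found at most ribosomal protein promoters. Of the 93 genes, 70 (75.3%) were bound, where the same window gave 31.4% of all protein-coding genes. Each replicate taken alone gave nearly the same count. Replicate 1, whose reads were not in the pooled list, had a top-ranked peak at 71 of the genes against 31% of all coding genes. Replicate 2 had 71 against 30.5%, replicate 3 had 72 against 31.4% and replicate 4 had 70 against 31.2%. The mean over replicates was 76.3% ± 0.878 (SD, n = 4) of ribosomal protein genes and 31.0% ± 0.373 (SD, n = 4) of all coding genes, and the replicate values did not overlap. How open or active the promoters are was not tested, so these shares say nothing of what sets ribosomal protein promoters apart from other active ones.

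The genes bound in one replicate were mostly those bound in the others. A top-ranked promoter peak was present in all 4 replicates at 58 genes (62.4%), against 22.1% of coding genes, and in at least 3 replicates at 70 genes (75.3%), against 28.3%. Among the 70 genes of the thresholded list, 58 had a top-ranked peak in all 4 replicates, 9 in 3 replicates, 2 in 2 replicates and 1 in a single replicate. That list was made from replicates 2, 3 and 4, so support in these replicates is partly built in. The same split was not computed for other bound genes. Across genes, ranks in the full lists had a Spearman correlation of 0.74 to 0.88 between replicates (mean 0.83 over 6 pairs, 76 to 80 genes each). The genes are not independent and the lists share a control, so this is a description of the lists.

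The DNA at 3 of the highest peaks, those of RpL34b, RpS27 and RpLP1, shows what these sites look like. They are printed here 5′ to 3′ on the strand of the ribosomal protein gene, from the RefSeq Release 6 genome, with the base at the summit in capitals. Each reaches 50 bases to either side of the summit, but stops 30 bases past the TSS of the gene.
RpL34b, chr3R:9401319-9401419, minus strand: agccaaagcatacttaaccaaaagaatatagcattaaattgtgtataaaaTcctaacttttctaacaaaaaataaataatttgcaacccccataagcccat
RpS27, chr3R:25247500-25247600, minus strand: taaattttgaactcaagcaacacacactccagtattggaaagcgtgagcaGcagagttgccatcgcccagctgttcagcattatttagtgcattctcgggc
RpLP1, chr2L:419930-419982, plus strand: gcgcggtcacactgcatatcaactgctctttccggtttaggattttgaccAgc
No DRE was found in these 3 stretches. The RpLP1 stretch holds GGTCACAC, the core of Motif 1, which in flies is bound by the zinc-finger factor M1BP.

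The highest-ranked peak at a ribosomal protein gene belonged to RpL34b, which encodes a large subunit protein. It spanned chr3R:9401125-9401607 with its summit 143 bp upstream of the TSS, ranked 422 in the thresholded list, and ranked 403, 422, 447 and 450 in replicates 1 to 4 (mean 430.5 ± 22.2, SD, n = 4). These 4 ranks lay close together. The TSS nearest to this summit was that of CG8132, which is transcribed away from RpL34b.

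RpS27, for a small subunit protein, came next at rank 514, with a summit 36 bp upstream and ranks of 514, 646, 469 and 446 in the replicates (mean 519 ± 89.4). RpLP1, for a protein of the acidic stalk that recruits translation factors to the ribosome, had its summit 28 bp downstream of the TSS, in the 5′ UTR, at rank 614. Its replicate ranks were 1015, 815, 282 and 412 (mean 631 ± 342), a wider spread in which replicates 3 and 4 were higher than replicates 1 and 2.

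The next 4 genes all encode large subunit proteins. RpL14 ranked 697 with its summit 31 bp upstream (845, 789, 697 and 517 in the replicates). RpL32, long used in flies as a reference gene under the name rp49, ranked 721 with its summit 127 bp upstream (656, 737, 685 and 1032). RpL11, whose product joins the 5S ribosomal RNA particle, ranked 723 with its summit 129 bp upstream (1059, 665, 657 and 549). Its window held a further summit, 73 bp downstream of the TSS, at rank 4989. RpL7 ranked 868 with its summit 44 bp upstream (958, 979, 834 and 790). In these 4 genes every replicate placed the peak among its first 1059.

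RpS20 and RpL34a were also among the 10 highest. RpS20 ranked 895 with little spread (885, 1016, 932 and 975, mean 952 ± 56.3). RpL34a, the paralog of RpL34b, ranked 936 (1126, 1369, 620 and 784).

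At the other end, RpL35 ranked 7411 of 7842 (9718, 8844, 6001 and 5097 in the replicates). RpS6, whose product is the classic target of S6 kinase, ranked 7603 (4366, 11556, 6591 and 8802). RpL24-like ranked 7644 (7833, 10386 and 14211, with no listed peak in replicate 4). These 3 genes lie near the threshold of the list, and RpL24-like was top-ranked in replicate 1 alone.

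Among bound genes listed in all 4 replicates, the spread between replicates was largest, by SD of rank, at 5 genes. RpS14a, whose product lies on the platform of the small subunit, had 2491, 13428, 2807 and 4669 (mean 5849 ± 5143). RpLP0-like had 11991, 2592, 4172 and 4529, and RpS13 had 6736, 3617, 2615 and 10149. RpS28b had 9123, 3427, 3207 and 1817, and RpS6, given above, was the fifth. In each of these genes at least 1 replicate placed the peak outside its top-ranked set.

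**Figure D1:**
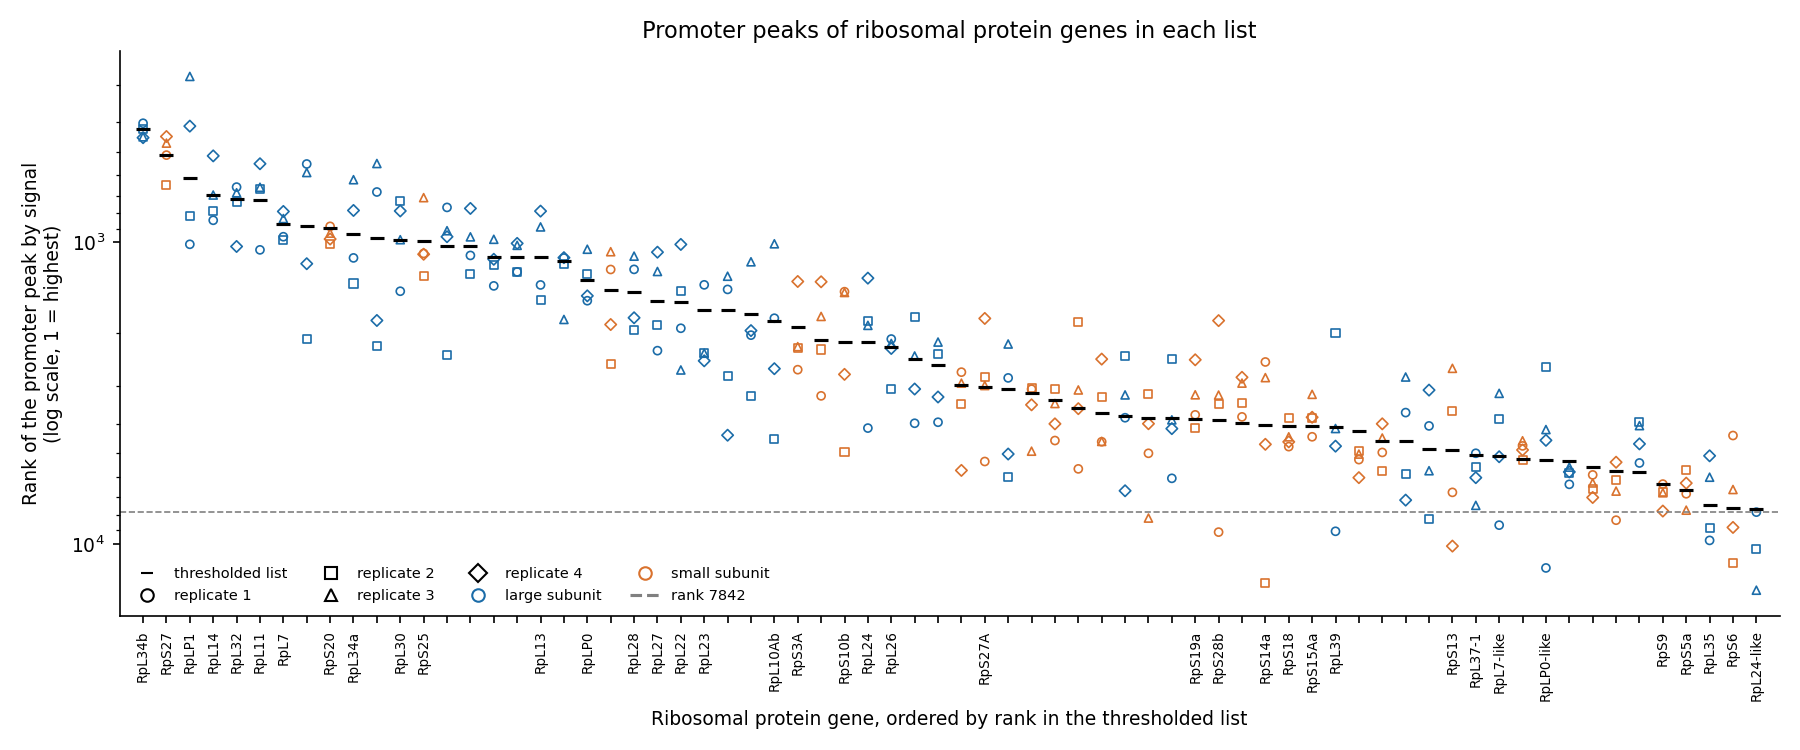
Rank of the promoter peak (vertical axis, log scale, 1 at the top) for the 70 ribosomal protein genes with a thresholded peak, ordered by rank in the thresholded list. Black bars give the thresholded rank, open symbols the rank in replicates 1 to 4, blue the large and orange the small subunit, and the dashed line rank 7842. Names are given for genes described in the text; blue symbols fill most of the left side, where 17 of the 20 highest genes belong to the large subunit.

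Although both subunits were bound about as often, the large subunit genes carried the higher peaks. Bound genes made up 41 of 54 (75.9%) in the large subunit and 29 of 39 (74.4%) in the small one, and in the replicates' own lists 76.4% ± 1.77 and 76.3% ± 2.45 (SD, n = 4). The median thresholded rank was 1678 over the large subunit genes and 3848 over the small subunit genes. In replicates 1 to 4 the medians were 1855, 2044, 1548 and 1815 for the large subunit, against 4408, 3444, 3203.5 and 3557 for the small subunit. The mean was 1816 ± 204 for the large subunit and 3653 ± 524 for the small subunit (SD, n = 4), and the replicate values did not overlap. The upper 25% of the thresholded list by signal held 24 of the 41 large subunit peaks (58.5%) and 5 of the 29 small subunit peaks (17.2%). Of all 93 genes, 29 (31.2%) had a peak in that range, against 10.1% of coding genes. No test was run on this difference, which was noticed in the data.

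Seen against other bound promoters, ribosomal protein peaks were of middling height and seldom weak. Their median thresholded rank was 2763 (quartiles 1128 and 4176.5, range 422 to 7644), against 3170 (quartiles 1497 and 5155) at the 4313 other bound coding genes. The median signal was 654 and 598 in the authors' units. The upper 25% of the list held 41.4% of the ribosomal protein peaks and 31.9% of the others, and the lower 25% held 7.14% and 18.1%. Among the 3926 thresholded peaks at coding promoters, the median ribosomal protein peak stood at percentile 36.8 from the top, and the RpL34b peak came at place 249. This percentile sets the highest peak of each ribosomal protein gene against all promoter peaks, lower summits of the same promoters included. It was not computed for other genes, so percentile 50 is no baseline for it. The median peak width was 392 bp (quartiles 307 and 480) against 480 bp (quartiles 286 and 480). The lower quartile ran the other way, and many peaks share the single width of 480 bp. These medians therefore do not show that the peaks were narrower. The DNA around their summits was richer in G and C, at a median of 43.1% against 32.7% within 50 bp of the summit.

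The peaks lay closer to the start site than at other genes. The median summit was at −35.5 bp from the nearest TSS of the gene (quartiles −84.8 and 0.75, range −336 to 126), where minus is upstream, against −119 bp (quartiles −211 and −23) at other bound coding genes. Within 50 bp of the TSS were 39 of 70 summits (55.7%), against 806 of 4313 (18.7%). Within 100 bp the shares were 77.1% and 37.5%. More than 200 bp upstream lay 5 ribosomal protein summits (7.14%) and 26.9% of the others. The replicates showed the same offset at different absolute positions. Their medians for ribosomal protein genes were −65, −12, −32.5 and −31.5 bp (mean −35.3 ± 22.0, SD, n = 4), against −135, −105, −114 and −107 bp at other genes (mean −115 ± 13.7), with no overlap between the sets. Replicate 1 placed both sets farther upstream than the other replicates did. Large subunit summits had a median of −47 bp and small subunit summits of −13 bp in the thresholded list. These positions were not computed in each replicate, so the spread of this difference is unknown. Peak summits have limited resolution with fragments of this size, so single positions are approximate.

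**Figure D2:**
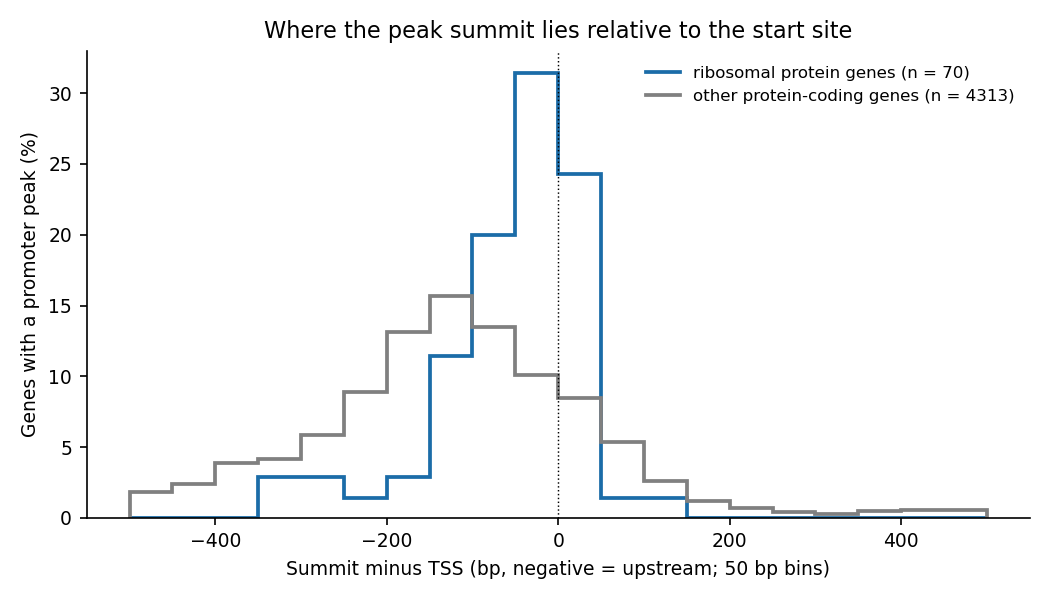
Share of bound genes (vertical axis, %) by position of the peak summit relative to the nearest TSS of the gene (horizontal axis, bp, 50 bp bins, upstream to the left) in the thresholded list. The blue line is 70 ribosomal protein genes, with a median of −35.5 bp, and the grey line 4313 other protein-coding genes, with a median of −119 bp.

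In terms of annotation, 43 of the 70 summits lay outside the gene, 21 in its 5′ UTR, 5 in an intron (RpL26, RpS18, RpS9 and RpL35 among them) and 1 in a coding exon (RpL39, whose product lines the exit tunnel). In 16 genes (22.9%) the window held at least 2 thresholded summits, near the 20.8% of other bound genes. The highest peak lay farthest from the TSS at RpS6 (−336 bp), RpL23 (−326 bp) and RpL7-like (−276 bp). RpL23 held a further thresholded summit at −127 bp, at rank 2336. Outside the limit of 500 bp were RpS28a, whose nearest thresholded summit lay at 543 bp (rank 1323), and RpS14b at 737 bp (rank 6336), both counted as not bound.

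Promoters shared with a neighbour carried the highest peaks. In 34 of the 70 bound genes (48.6%) the start of another coding gene on the opposite strand lay within the window of the summit, close to the 52.4% of other bound genes. The peaks of these 34 had a median rank of 1385.5, against 3789 in the 36 without such a neighbour. In replicates 1 to 4 the medians were 1306.5, 2023, 1054 and 1504 with the neighbour, against 4050.5, 3070, 3189 and 3894 without it, with no overlap. At other coding genes the medians were nearer to each other, 2916 with a divergent neighbour and 3544.5 without. The upper 25% of the list held 22 of the 34 shared promoters and 7 of the 36 others. Summits at shared promoters lay farther upstream, at a median of −63 bp against −14.5 bp. Other coding genes showed the same direction, with −135 bp against −84.5 bp. Because neighbours were counted in a window around the summit, this offset depends in part on the definition.

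The neighbour and the subunit went together to some degree. Among large subunit genes the median rank was 1136.5 with a divergent neighbour (24 genes) and 2429 without (17 genes). Among small subunit genes it was 3416 with (10 genes) and 3885 without (19 genes). In both subunits the shared promoters ranked higher, by more in the large subunit, and this interplay was not tested.

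Of the 10 highest genes, 9 had a divergent coding neighbour, RpL11 being the exception. Their partners included CG8132 (RpL34b), Nup37, a nuclear pore gene (RpS27), CG13690 (RpLP1), Nelf-E, for a subunit of the factor that pauses RNA polymerase II (RpL14), CG7943 (RpL32), Ripalpha, for a protein that carries replication protein A into the nucleus (RpL7), CG17271 (RpS20) and Trmt61, a transfer RNA methyltransferase gene (RpL34a). Further along the list, RpL13 at rank 1119 (1384, 1551, 889 and 788 in the replicates) faced Dref itself, the gene of the DRE-binding factor, and its summit was nearer to the Dref start. RpL28 at rank 1461 faced the translation initiation factor gene eIF1, and RpS6 faced bys, a gene for assembly of the small subunit. In all, the TSS nearest to the summit was that of the ribosomal protein gene in 64 of the 70. The 6 exceptions were RpL34b, RpL13, RpL23, RpL7-like, RpLP0-like and RpS6. Another coding gene started in the window of 35 of the 70 peaks, these 6 among them. At none of the 35 can the peak be assigned to the gene or its neighbour, since summit positions are approximate.

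**Figure D3:**
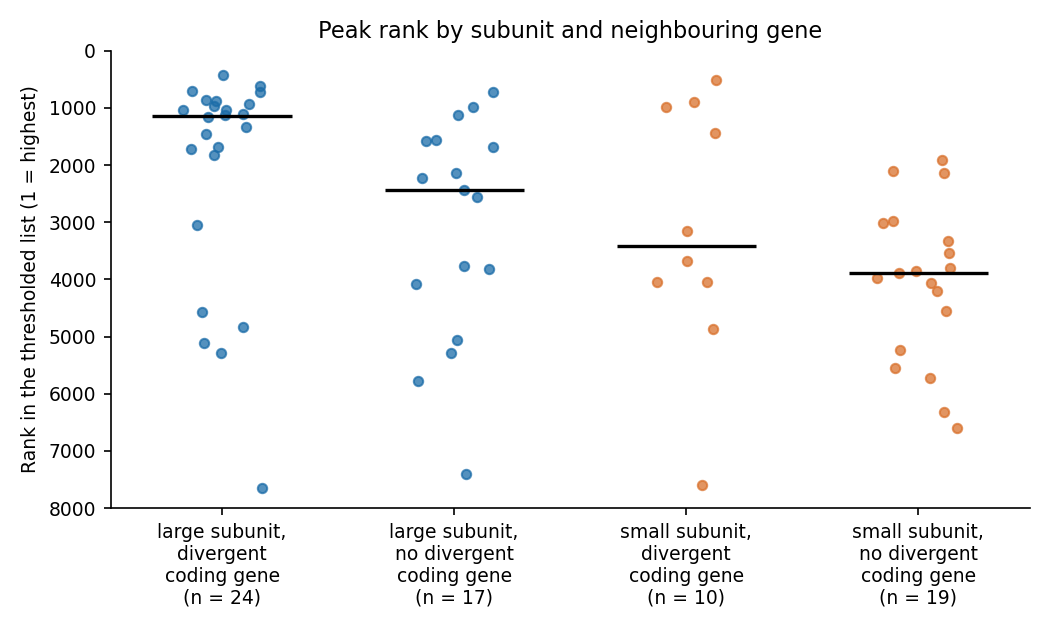
Rank in the thresholded list (vertical axis, 1 at the top) of the 70 bound ribosomal protein genes, split by subunit and by the presence of a divergent coding gene in the window. Points are genes, spread sideways at random, and bars are medians of 1136.5, 2429, 3416 and 3885 from left to right.

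The X chromosome had most of its ribosomal protein genes bound, at lower ranks. On the X 13 of 15 were bound, with a median rank of 4039, against 2104 for 57 bound autosomal genes. The replicate medians were 4366, 3816, 3874 and 3442.5 on the X, against 2091, 2334.5, 1884 and 1961 on the autosomes. Other coding genes had medians of 3787.5 on the X and 3045 on the autosomes. None of the 20 highest ribosomal protein peaks was on the X, where 8 of the 13 bound genes belong to the small subunit, so arm and subunit cannot be fully told apart. Bound shares on the other arms were 14 of 19 on 2L, 13 of 21 on 2R, 11 of 14 on 3L and 18 of 23 on 3R, while coding genes as a whole ran from 27.5% on chromosome 4 to 32.7% on 3R. The single gene on chromosome 4, RpS3A, was bound at chr4:67028-67385 with its summit at the TSS, rank 1914 (2642, 2234, 2216 and 1348).

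Genes with several start sites were bound more often, as in the genome at large. With at least 2 TSSs 37 of 45 ribosomal protein genes were bound, against 1820 of 3699 coding genes, and with 1 TSS 33 of 48 were, against 2563 of 10246. The excess over coding genes was thus present in both classes. Of the 29 genes that hold a small nucleolar RNA gene, a common feature of fly ribosomal protein genes, 24 were bound (82.8%), against 46 of the 64 that hold none (71.9%). The same shares were not computed over all coding genes, so this difference cannot be read as a trait of the family.

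The promoters of RpL27 and RpS25 illustrate the sequence elements. They were picked after the motifs had been searched, as genes that carry both elements. The stretch runs from 100 bases before to 30 bases after a TSS, 5′ to 3′ on the strand of the gene, with the DRE and the first 5 letters of the TCT initiator in capitals.
RpL27, chr3R:25685021-25685151, minus strand: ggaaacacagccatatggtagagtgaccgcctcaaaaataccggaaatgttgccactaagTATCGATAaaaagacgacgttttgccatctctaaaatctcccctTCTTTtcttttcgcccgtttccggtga
RpS25, chr3R:11216257-11216387, minus strand: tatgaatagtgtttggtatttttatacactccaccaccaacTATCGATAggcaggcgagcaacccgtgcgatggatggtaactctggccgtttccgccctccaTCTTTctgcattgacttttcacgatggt
The DRE starts 40 bp upstream of the TSS in RpL27 and 59 bp upstream in RpS25. RpL27 ranked 1565 with its summit 8 bp upstream (2285, 1873, 1249 and 1078 in the replicates), and RpS25 ranked 989 with its summit 110 bp upstream (1088, 1292, 711 and 1095).

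The TCT initiator marked the family as a whole. It was searched on the coding strand as C or T followed by CTTTNN, with the first C of CTTT within 5 bp of an annotated TSS. It was present at 46 of the 70 bound genes (65.7%) and 10 of the 23 others (43.5%), against 3.31% of all coding genes. The common initiator letters TCAGT, searched in the same place, were present at 1 of the 93 genes, against 14.0% of coding genes. Read the other way, 46 of 56 ribosomal protein genes with the TCT initiator were bound (82.1%), and 24 of 37 without it (64.9%). Rank differed little with it, the medians being 2558 and 3046.5.

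The DRE was more common at bound ribosomal protein promoters than at any other set compared. Searched on both strands from 250 bp before to 50 bp after the TSSs, it was present at 26 of the 70 bound genes (37.1%) and at 2 of the 23 others (8.70%, RpS16 and RpS15Ab). At other coding genes it was present in 15.4% of bound and 6.24% of unbound promoters, and in 9.24% of all coding promoters. Of the 28 ribosomal protein genes with a DRE 26 were bound (92.9%), against 44 of 65 without (67.7%). Their peaks were not higher, with a median rank of 3657 against 2122. The nearest DRE within 250 bp lay at a median distance of 43.5 bp from the summit at 25 ribosomal protein peaks, against 88.5 bp at 475 peaks of other genes. All 8 letters lay within 50 bp of the summit at 15 of 70 ribosomal protein peaks (21.4%) and 117 of 3093 other peaks (3.78%). At RpL34a and RpS14a the centre of the DRE lay 2.5 bp from the summit.

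Other core promoter letters split in different directions. The Motif 1 core GGTCACAC was present at 12 bound genes (17.1%) and 2 unbound ones (8.70%), against 13.5% of other bound coding genes and 5.16% of other unbound ones, in the same window on both strands. The palindrome CACGTG, which the Myc and Max proteins bind, was present at 11 bound genes (15.7%) and at none of the 23 unbound ones, against 4.57% of other bound coding genes and 4.02% of other unbound ones. The letters GAGAG, bound by the GAGA factor, were rarer than at other genes, at 17.1% of bound and 17.4% of unbound ribosomal protein genes against 30.3% of all coding promoters. CAGCTG was present at 8.57% of bound genes and 13.0% of unbound ones, against 22.8% of other bound and 15.6% of other unbound coding genes, and the TATA letters TATAAA at 40% and 60.9%, against 46.0% and 45.4%. The core of Motif 7, CAGCNCTG, was found at 11.4% of bound genes and none of the unbound ones, against 12.3% of other bound coding genes and 5.16% of other unbound ones. The repeat CACACACA was found at 2 bound genes and 1 unbound gene, against 4.24% of all coding promoters, and Motif 6 at 3 and 1, against 3.87% of other bound and 1.47% of other unbound coding genes. Such matches are descriptions of the letters, and overlaps between motifs were allowed. With 23 unbound genes, a share of 0 is a weak limit.

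**Figure D4:**
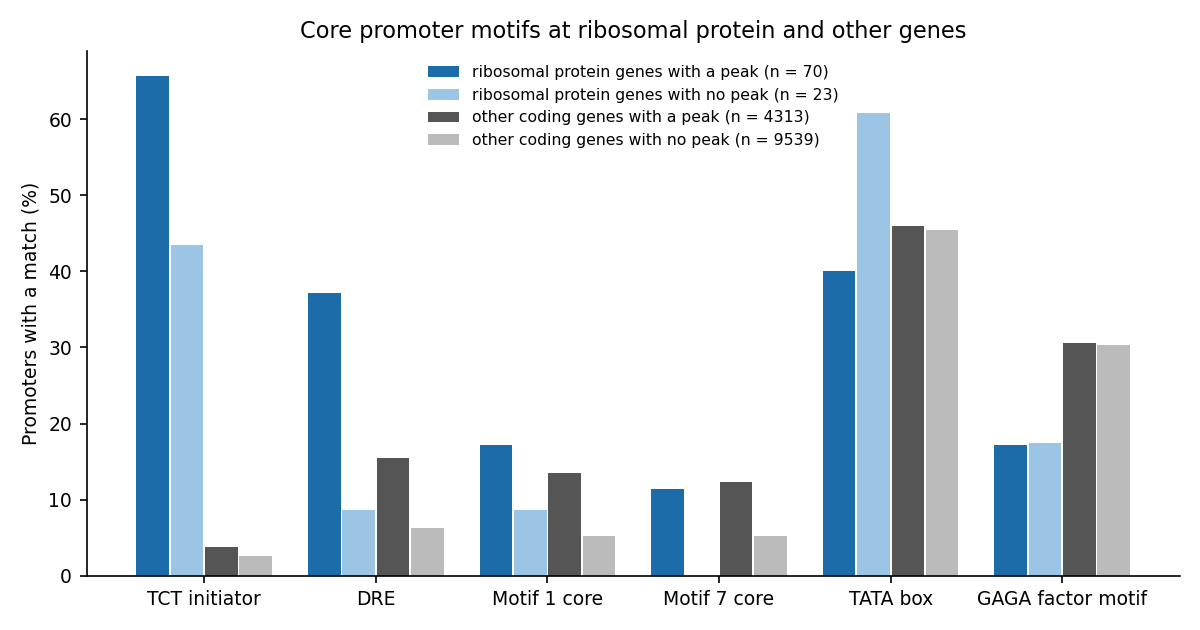
Share of promoters with each motif (vertical axis, %), in bound and unbound ribosomal protein genes (blue and light blue, n = 70 and 23) and in bound and unbound other coding genes (dark and light grey, n = 4313 and 9539). The TCT initiator was searched within 5 bp of the TSS and the others from 250 bp before to 50 bp after it; the TCT initiator (65.7% of bound ribosomal protein genes) and the DRE (37.1%) stand highest above the other genes.

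Duplicated ribosomal protein genes differed from each other. The annotation holds 27 such genes in 14 pairs, RpS28b being paired with both RpS28a and RpS28-like. Both genes were bound in 4 pairs, a single gene in 10 pairs, and in no pair were both unbound. Genes in no pair were bound in 53 of 66 cases. The RpS19 pair, whose human counterpart is mutated in Diamond-Blackfan anaemia, shows the contrast. The promoters are printed as above, with the TCT initiator in capitals where it was found.
RpS19a, chrX:16637794-16637924, plus strand: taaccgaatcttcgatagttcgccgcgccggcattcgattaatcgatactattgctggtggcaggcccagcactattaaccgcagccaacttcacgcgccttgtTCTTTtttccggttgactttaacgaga
RpS19b, chr3R:23933500-23933630, minus strand: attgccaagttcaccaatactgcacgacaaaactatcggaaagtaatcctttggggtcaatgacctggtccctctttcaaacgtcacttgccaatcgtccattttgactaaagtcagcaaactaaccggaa
RpS19a was bound 28 bp downstream of its TSS at rank 3848 (3729, 4133, 3200 and 2450 in the replicates). RpS19b, known as the copy used in the female germline, had a listed promoter peak in replicate 4 only, at rank 10534. No TCT initiator or DRE was found in the RpS19b promoter.

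In 5 pairs the unbound gene had no listed promoter peak in any replicate. RpL10Ab ranked 1821 (1784, 4488, 1011 and 2622), and RpL10Aa was in no list. RpL22, whose fly protein carries an added histone H1-like stretch, ranked 1581 (1926, 1450, 2648 and 1016), and its male germline relative RpL22-like was in no list. RpL37-1 ranked 5062 (4999, 5562, 7439 and 6022), against no listed peak at RpL37-2, although RpL37-2 has the TCT initiator and RpL37-1 does not. RpS5a ranked 6604 (6809, 5676, 7716 and 6278), against none at the ovary-enriched copy RpS5b, where both carry the initiator. RpS28b was bound, as given above, and RpS28-like was in no list.

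In the other pairs with a single bound gene, the second had weak or scattered peaks. RpS10b ranked 2137 (1457, 4956, 1466 and 2738), while RpS10a had ranks of 14786, 20273 and 17364 in replicates 1, 2 and 4 and no peak in replicate 3. RpS15Aa ranked 4056 (4408, 3816, 3189 and 3798), while RpS15Ab had 11023, 25392, 28376 and 16742, with every value below that of its paralog. RpS28a had 9107 in replicate 2 and 13077 in replicate 3 alone. RpS14a and RpS14b are adjacent copies of nearly identical sequence, where the placement of reads by the authors could mix the signals. RpS14b had 15616, 6799, 21259 and 6240, which overlapped the range of RpS14a.

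Both genes were bound in the RpL34, RpL7, RpL24 and RpLP0 pairs. RpL34b and RpL34a lay near each other in rank, at 422 and 936. The other 3 pairs join a ribosomal protein gene with a relative that resembles a yeast factor of large subunit assembly. RpL7 ranked 868 and RpL7-like 5104 (8650, 3857, 3165 and 5133). RpL24 ranked 2140 (4125, 1816, 1884 and 1314) and RpL24-like 7644. RpLP0, the base of the acidic stalk, ranked 1332 (1561, 1271, 1054 and 1504) and RpLP0-like 5279. In each of the 4 pairs all replicate ranks of the higher gene lay above those of the other that were listed.

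**Figure D5:**
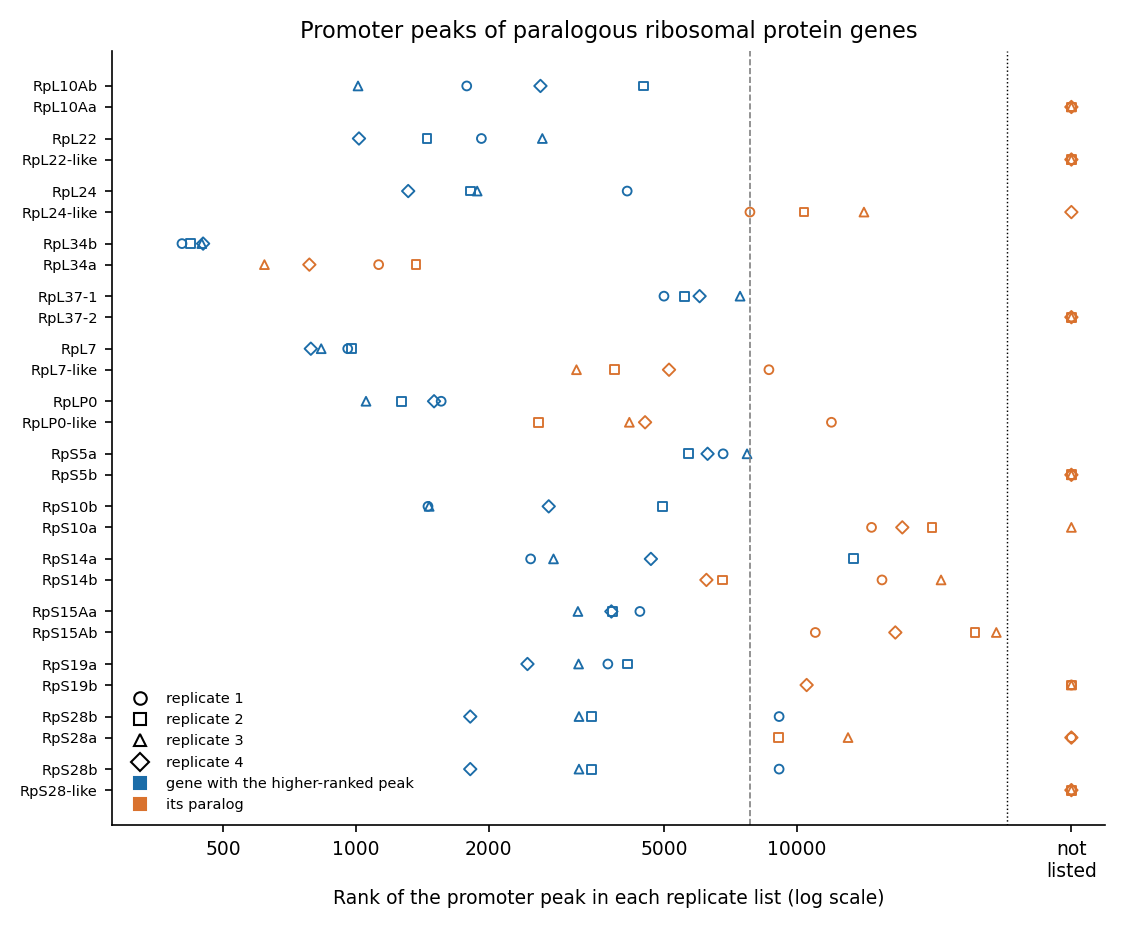
Rank of the promoter peak in the lists of replicates 1 to 4 (horizontal axis, log scale) for 14 pairs of duplicated ribosomal protein genes, with the gene of the higher-ranked peak in blue above its paralog in orange. The dashed line is rank 7842, the dotted line rank 30000, the end of the lists, and symbols at the far right mark genes with no listed promoter peak; 10 of the 14 orange genes have no thresholded peak.

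Some unbound genes had peaks near the threshold and others had no listed peak. Of the 23, 12 had a promoter peak in the pooled list, 18 in at least 1 full replicate list and 10 a top-ranked peak in at least 1 replicate. The matching shares over unbound coding genes were not computed, so these counts describe the 23 genes only. Near the threshold were RpL12 at pooled rank 8140 (6167, 15241, 4170 and 9950) and RpLP2, for the partner of RpLP1 in the stalk, at 8318 (7988, 5800, 5928 and 11696). RpL7A followed at 8847 (7426, 6038, 18556 and 5175) and RpS14b at 9330. These genes would be bound under a slightly longer list. A top-ranked peak in 3 replicates but no thresholded promoter peak was seen at 3 of all 93 genes (3.23%), RpS16 and RpL7A among them. The share over all coding genes was 0.774% (108). Over the full lists, 82 of the 93 genes (88.2%) had a peak in the pooled list against 49.8% of coding genes. In at least 1 replicate list 88 had one (94.6%), against 62.5%, and in every replicate list 76 (81.7%), against 41.3%.

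RpL40, which encodes a ribosomal protein fused to ubiquitin, was listed in every replicate at low ranks (11405, 12644, 10131 and 20957; pooled 15011). RpS27A, the other such fusion, was bound at rank 3011 with its summit 6 bp upstream (5323, 2796, 2982 and 1787). RpL9 had 4176 and 14922 in replicates 1 and 3 only, so the replicates disagreed there.

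Several unbound genes lie close to the centromere. RpL15 on 3L, RpL5 and RpL21 on 2L and RpL38 on 2R lie 0.843, 0.977, 1.27 and 4.52 Mb from the proximal end of the arm sequence, and RpL10 on 3L lies 5.01 Mb from it. Their listed peaks came almost only from replicate 1, at ranks of 7385, 5472, 10688, 14131 and 8873 in the same order of genes, apart from RpL5 at 25581 in replicate 4. None was in the pooled list. Within 5 Mb of the proximal end 2 of 6 ribosomal protein genes were bound, RpS10b and RpL30 (rank 979), against 26.0% of 1028 coding genes there. The 5 Mb limit was set after these genes had been seen, and 6 genes are too few for a comparison.

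Other gene lists of protein synthesis had bound shares between the 75.3% of the cytoplasmic ribosomal protein genes and the 31.4% of all coding genes. The mitochondrial ribosomal protein genes, whose products form the separate ribosome of the mitochondrion, were bound in 43 of 73 cases (58.9%). Translation initiation and elongation factor genes were bound in 25 of 52 cases (48.1%), and a list of ribosome biogenesis and RNA polymerase I genes in 20 of 32 (62.5%). Some single peaks in these lists were far higher than any at the cytoplasmic genes, but the lists as a whole were not. Their median thresholded ranks were 2584 (mitochondrial), 3146 (translation factors) and 3290.5 (biogenesis), against 2763 for the cytoplasmic genes. mRpS10 ranked 8 (6, 14, 12 and 7 in the replicates), and eIF4EHP, for a cap-binding repressor of translation, ranked 17 (11, 20, 10 and 19). eIF6, for a factor that keeps the subunits apart until the large one is mature, ranked 156 (157, 122, 347 and 126), and the nucleostemin relative Ns2 ranked 173 (201, 192, 162 and 157). eIF6 is counted in both the translation factor and the biogenesis list. The peak that RpL28 shares with eIF1 and the peak that RpS6 shares with bys also count for both genes. The lists are therefore not fully separate from the cytoplasmic genes.

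Summit positions differed between these lists. The median was −132 bp at mitochondrial ribosomal protein genes and −106.5 bp at biogenesis genes, near the −119 bp of other genes, and −36 bp at translation factor genes, near the −35.5 bp of cytoplasmic ribosomal protein genes. Within 50 bp of the TSS lay 3 of 43 mitochondrial, 3 of 20 biogenesis and 10 of 25 translation factor summits. The share of G and C within 50 bp of the summit split the same way. Its median was 41.6% at translation factor genes, near the 43.1% of cytoplasmic ribosomal protein genes. It was 30.7% at mitochondrial ribosomal protein genes and 32.7% at biogenesis genes. eEF1gamma, for a subunit of the elongation factor complex, ranked 943 with its summit 42 bp upstream (1194, 974, 966 and 600).

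The count of bound genes moved with the window and the peaks used. With 200 bp in place of 500 bp it was 66, against 24% of coding genes, and with 1000 bp it was 75, against 35.1%. In the upper 50% of the thresholded list by signal it was 47, against 18.7%. Counting only summits nearest to a TSS of the gene itself gave 65, against 23.9%. Requiring a replicate summit within 100 bp in all 4 replicates gave 46, against 18.7%.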

How the data were processed

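The authors deposited peak lists on the dm6 assembly, per the labels, for 4 replicates and for pooled reads, and a thresholded list made from replicates 2, 3 and 4, per the deposited notes. Aligner and peak caller: not given in the sources used here. The authors' signal value of a peak has its own scale in each list and served only for ranks within a list. The −log10 q-value deposited with the peaks was 4.25 throughout the thresholded list and 0.432 or more in the pooled list. Read depth is unknown, so no interval that needs it is given.

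TSSs were taken from Ensembl release 115, whose coordinates are those of Release 6, after transposable elements were left out. Per gene the highest-signal summit within 500 bp of any TSS was kept. Python 3.11.15, NumPy 2.4.6 and pandas 2.3.3 were used, and the steps were tested on simulated peaks. The genes and lists were chosen with earlier results of these data known, so shares are given beside those of all coding genes and no set was tested. Named genes are the 10 highest and 3 lowest, those without a peak, duplicated pairs, those nearest 500 bp, and the 5 with the largest rank SD; a few of these are not reported here. Of 34 biogenesis genes listed, 32 were matched by symbol or synonym; rio had no single match, and Pes is a synonym of an unrelated gene. Genes and peaks are not biological replicates. Whether the replicates came from separate collections is not stated beyond the word biological, so SDs measure the spread between these samples.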

Additional observations from a re-analysis of the deposited data

Results flagged for a closer look

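In 33 groups of 4 replicate values examined, 2 held a value far from the other 3 by Dixon's criterion. Chance alone sets apart about 1 in 20 groups. The first was the highest-signal summit in the RpL23 promoter window, which ranked 1383 in replicate 1 and 2320, 2330 and 2469 in replicates 2, 3 and 4. In replicate 1 that summit lay at −177 bp, and in the others at −319, −321 and −375 bp. The thresholded list held 2 summits there, at −326 bp (rank 1678) and −127 bp (rank 2336), and whether the replicates' ranks belong to the same summit was not tested. The second was the median rank of top-ranked ribosomal protein peaks, which was 3065 in replicate 1 and 2600, 2631.5 and 2545.5 in replicates 2, 3 and 4. Both set replicate 1 apart, whose reads were not in the pooled list. The cause was not tested.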

How the results depend on the processing

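The 70 bound ribosomal protein genes became 46 when a replicate summit within 100 bp was required in all 4 replicates, and lay between 47 and 82 under the other alternatives tried, including 67 of 88 without symbols ending in -like. Leaving out a replicate from the overlap gave 59 to 63. The 58 genes top-ranked in all 4 replicates became 30 with 0.5 times as many peaks per replicate, a stricter limit by construction, 72 with double the number, and 60 to 63 without 1 replicate. Shares over all coding genes were not computed for these settings or for the overlap. Whether the excess over coding genes held under them is thus unknown. The median summit at −35.5 bp became −65 bp in replicate 1 and −12 bp in replicate 2. The SD of 22.0 bp between replicates comes from these same medians, so it cannot weigh the moves. Percentile 36.8 became 41.7 in replicate 1, 30.6 with a 200 bp window and 32.3 with a 1000 bp window, and the cause was not tested. No paired analysis was possible because the labels give 1 group. Depth is unknown and 1 transgenic line was used, so weak peaks at single genes cannot be weighed, and no control without the tag was analysed here.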

Other observations

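RpS16, for a small subunit protein, had different summits in the replicate and pooled lists. Replicate 1 had it at rank 1534 (71 bp upstream, −log10 q 4.39), replicate 2 at 2600 (23 bp upstream) and replicate 4 at 1483 (81 bp upstream), and replicate 3 listed none. The pooled list held a single summit in the window, 137 bp downstream, at rank 16009 with −log10 q 1.45. Lower summits on that side were also listed in replicate 2 (178 bp downstream, rank 9010) and replicate 4 (121 bp downstream, rank 6662). RpL9 had a summit 52 bp downstream at rank 4176 in replicate 1, which also listed another 224 bp upstream at rank 13758, and the pooled list held only a summit 193 bp upstream, at rank 19121. These genes were chosen after their values were seen.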
